A study of Mus musculus with 4 samples.

Results

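Trp63, Grhl1, Grhl2, Grhl3, Ovol1, Ovol2, Esrp1, Esrp2 and Klf5, a set of 9 regulators of surface epithelium, were followed in the developing mouse face with and without a normal copy of Smchd1. They were picked by name as known epithelial regulators, with earlier results of these data known. All 9 were found once among the 33708 autosomal gene rows analysed. The tissue was the frontonasal prominence (FNP), the swelling that forms the nose and the middle of the upper lip. It was dissected at E10.5, from embryos of 29 somites on the FVB/NJ background, by parting it from the maxillary prominence. WT was Smchd1+/+ and comprised a female (replicate 1) and a male (replicate 2). MD43 was Smchd1MommeD43/MommeD43, homozygous for an ENU-induced missense allele of this chromatin silencing gene, and comprised 2 males. Neither genotype carried a transgene, a Cre or any other allele by the labels, and no embryo was treated. WT replicate 2 and MD43 replicate 2 had the same mother, and its sex is female in a further record of the study, in which case sex and genotype cannot be told apart.

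The face at this stage is a core of neural crest mesenchyme under a thin surface ectoderm, next to the nasal placodes and the forebrain. The 9 genes act in that ectoderm. Trp63 encodes p63, the transcription factor that commits ectoderm to a stratified epithelium, and the grainyhead-like factors Grhl1, Grhl2 and Grhl3 switch on cell junction and barrier genes. Ovol1 and Ovol2 are zinc-finger repressors that keep epithelial cells from turning mesenchymal. Esrp1 and Esrp2 are RNA-binding proteins that set epithelial patterns of splicing, and Klf5 is a Krüppel-like factor of proliferating epithelia. Loss of p63, of Esrp1 or of Grhl2 disturbs closure of the face in mice, and TP63 and GRHL3 are human orofacial cleft genes.

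Grainyhead factors bind an 8-base site, AACCNGTT, and the ZEB and SNAIL repressors that oppose epithelial identity bind the E-box CACCTG, so the sequence just before the gene start was examined for both. Windows of 300 bases (250 before and 50 after a start, from RefSeq, GRCm38.p6) were given for 3 of the 9 regulators, Grhl1, Grhl3 and Ovol2, and for 17 of 25 grainyhead-linked epithelial genes. The E-box, read on both strands, was in the window of 13 of those 17 genes (76.5%) and of 6098 of 27025 genes with a window (22.6%). Other epithelial lists held it often too, with 8 of 14 p63-linked genes (57.1%) and 5 of 8 simple-epithelium and periderm genes (62.5%). Among the regulators it was in that of Grhl3 alone. Of 11 mesenchymal opponents with a window, 1 held it (9.09%). The grainyhead site was in 2 of the 17 windows (11.8%), those of Rab25 and Cgn, against 2.35% of all genes, and in none of the 3 regulators. It was not particular to that list, being in 3 of 14 p63-linked windows (21.4%), 1 of 8 of the simple-epithelium list (12.5%) and 1 of 7 of the endothelium list (14.3%). The AP-2 site GCCNNNGGC, of the ectoderm factor family of Tfap2a, was found for Grhl1 and for 18.5% of all genes. These are letter matches in a short window and say nothing of binding. The bases upstream of the start, without those in an annotated exon, are printed for Grhl3 and for a window of Grhl1. A further Grhl1 window, in which none of these sites was found, and the Ovol2 window are not printed. Upstream bases are also printed for 3 epithelial genes that hold the E-box (Epcam), the grainyhead site (Cgn) or both (Rab25). They are written 5′ to 3′ on the strand of the gene, with E-boxes in Grhl3, Epcam and Rab25, the AP-2 site in Grhl1 and the grainyhead site in Rab25 and Cgn in capitals.
Grhl3, chr4:135573633-135573882, minus strand: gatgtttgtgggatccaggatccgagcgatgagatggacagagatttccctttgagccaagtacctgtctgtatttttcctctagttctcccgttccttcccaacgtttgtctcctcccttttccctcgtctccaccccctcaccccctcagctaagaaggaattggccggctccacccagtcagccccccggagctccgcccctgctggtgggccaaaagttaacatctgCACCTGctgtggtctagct
Grhl1, chr12:24572037-24572282, plus strand: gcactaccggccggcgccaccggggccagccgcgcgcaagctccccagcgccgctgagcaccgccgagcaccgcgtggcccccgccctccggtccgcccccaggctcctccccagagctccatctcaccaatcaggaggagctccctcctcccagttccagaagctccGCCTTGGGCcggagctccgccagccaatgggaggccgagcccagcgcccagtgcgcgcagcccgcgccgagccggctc
Epcam, chr17:87635779-87635978, plus strand: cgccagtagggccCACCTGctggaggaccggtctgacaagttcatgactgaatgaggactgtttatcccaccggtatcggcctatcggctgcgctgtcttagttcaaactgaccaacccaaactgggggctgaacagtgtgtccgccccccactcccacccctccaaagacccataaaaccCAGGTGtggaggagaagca
Rab25, chr3:88548301-88548399, minus strand: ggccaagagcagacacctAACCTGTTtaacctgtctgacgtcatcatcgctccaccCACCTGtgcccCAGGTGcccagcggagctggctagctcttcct
Cgn, chr3:94786493-94786582, minus strand: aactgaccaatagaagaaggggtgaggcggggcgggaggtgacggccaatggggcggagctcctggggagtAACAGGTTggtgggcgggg

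Levels are given as RPKM (reads per kb of transcript scaled to the size of the library, a scale per length), of which the authors' table gives the log2, in 1 value for each genotype. This value merged the 2 libraries of a genotype, so no spread between embryos can be given, and no p-value was computed here. The reads behind it could be recovered (geometric mean of the 2 libraries), at depths of 22328791 reads for MD43 and 16055881 for WT. The ± beside a log2 fold change (MD43 minus WT) is the smallest standard error that counting these reads allows, and an interval is the 95% interval from that error alone. A gene is said to have risen or fallen where its level differed at least 1.5-fold, which is a size and not a test. A gene was used where either genotype had 10 reads or more, which left 15377 genes, and all 9 regulators were among them. Smchd1 itself was at 9.93 RPKM in WT and 9.84 RPKM in MD43 (-0.01 ± 0.02), which does not check the labels, because the allele is a missense change. As to the labelled tissue, all 12 facial mesenchyme markers were used, and they summed to 132 RPKM in WT and 135 RPKM in MD43.

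Of the 9 regulators, 3 rose in MD43 (Ovol2, Grhl2 and Esrp1) and none fell, where 4.24% of all used genes rose and 6.43% fell. The set was chosen with earlier results of these data known. Ovol2 was among the used genes only through its reads in MD43, so it could enter the count only as a gene that rose. Past 1.5-fold and also beyond the counting interval were 487 of the 15377 used genes (3.17%), out of 652 that rose, and all 3 regulators were among the 487. No regulator was lower by 2-fold, as 2.47% of used genes were. The other 6 regulators lay within 1.5-fold. The value was higher in MD43 for 6 regulators and lower for 3 (Grhl3, Ovol1 and Klf5), against 51.2% of used genes with a higher value. Their median log2 fold change was 0.23, beside 0.01 over all used genes. Summed over the set, the level was 21.3 RPKM in WT and 27.1 RPKM in MD43, a ratio of 1.28. Nearest to the 1.5-fold limit were Esrp1 at 1.51-fold, just past it and just short of it (log2 fold change 0.58) with a pseudocount of 0.1 RPKM, and Grhl1 at 1.31-fold, short of it. In a bulk sample, fewer cells of a type and less RNA per cell cannot be told apart, and the same holds for more of either.

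**Figure D1:**
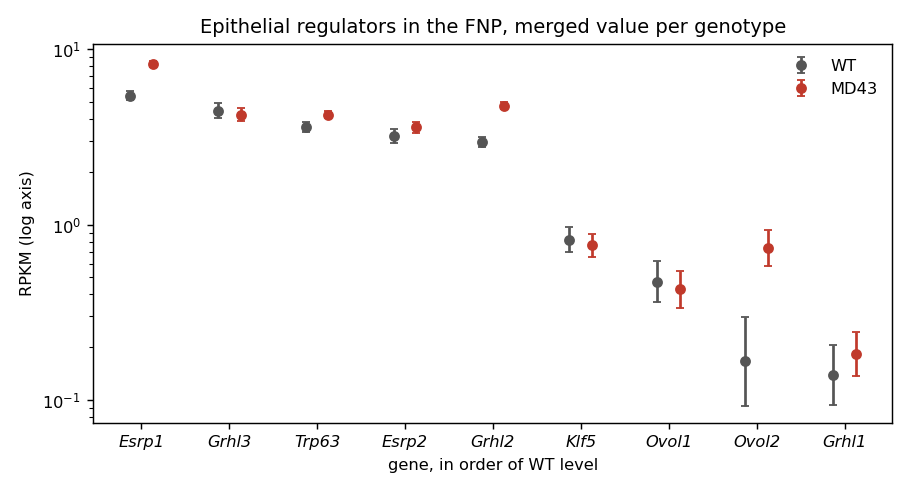
Level of each regulator in WT (grey) and MD43 (red), in RPKM on a log axis, with genes in order of their WT level. Each point is the authors' merged value of 2 libraries and bars are the 95% interval from counting error alone. Ovol2, Grhl2 and Esrp1 are higher in MD43, at 4.43, 1.61 and 1.51-fold, and the other 6 pairs lie closer together.

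The order of levels was alike at its ends and changed in the middle. In WT the sequence ran from Esrp1 through Grhl3, Trp63, Esrp2, Grhl2, Klf5, Ovol1 and Ovol2 to Grhl1, and the neighbours Esrp2 and Grhl2, and Ovol2 and Grhl1, did not differ beyond counting error. In MD43 it ran Esrp1, Grhl2, Trp63, Grhl3, Esrp2, Klf5, Ovol2, Ovol1, Grhl1. There Trp63 and Grhl3, and Klf5 and Ovol2, did not differ beyond counting error. Grhl2 had thus passed Grhl3, Trp63 and Esrp2. All 9 were modest transcripts of the whole prominence. Esrp1, the most abundant, was above 51.6% of used genes in WT and 61.6% in MD43, and Grhl1 above 2.78% and 4.38%.

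Trp63 (ENSMUSG00000022510.14, GRCm38 chr16:25683763-25892102, plus strand) had a level of 3.61 RPKM in WT (486 reads) and 4.24 RPKM in MD43 (795 reads). The log2 fold change was 0.23 ± 0.06, or 1.18-fold (interval 1.09 to 1.27), under the 1.5-fold limit. The reads counted over the whole gene do not separate its TA and ΔN isoforms. Genes that p63 is known to act on, or that mark the basal epithelium it specifies, were mixed. Of 25 on that list 24 were used, 3 rose and 1 fell, with a median log2 fold change of 0.27. This stands beside 4.24% of all used genes that rose and 6.43% that fell. Krt5, the keratin of basal cells, rose 2.25-fold from 18.0 to 56.1 reads (1.17 ± 0.28). Trim29 rose by 0.71 ± 0.14, and Dsp, encoding the desmosome protein desmoplakin, rose by 0.62 ± 0.05, both on the log2 scale. Lamb3, a chain of the basement membrane laminin, fell from 18.9 to 11.8 reads (log2 fold change -1.15 ± 0.38). Itgb4, the hemidesmosome integrin, was at -0.51 ± 0.20. The 3 members with the highest mean log2 level over both genotypes, Itga6, Bmp7 and Frem2, had log2 fold changes of 0.25 ± 0.03, 0.28 ± 0.05 and 0.31 ± 0.03.

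Among the grainyhead-like factors, Grhl2 rose, and Grhl1 and Grhl3 did not pass the limit. Grhl2 (ENSMUSG00000022286.16, chr15:37233036-37363569, plus strand) was at 2.96 RPKM in WT (410 reads) and 4.76 RPKM in MD43 (915 reads). This is 1.61-fold (interval 1.48 to 1.74; log2 fold change 0.68 ± 0.06). Grhl3 (ENSMUSG00000037188.7, chr4:135541888-135573630, minus strand), known for neural tube closure and the periderm, was at 4.45 RPKM in WT (199 reads) and 4.24 RPKM in MD43 (264 reads). Its log2 fold change was -0.07 ± 0.10, with an interval of 0.836 to 1.08-fold. Grhl1 (ENSMUSG00000020656.16, chr12:24572283-24617391, plus strand), which acts on desmosome genes, was near the lower limit of use, at 0.140 RPKM (12.4 reads) and 0.183 RPKM (22.6 reads). A log2 fold change of 0.39 ± 0.36 (0.804 to 2.14-fold) leaves its direction undetermined at this depth.

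Of 25 genes known to be linked to grainyhead factors 23 were used, 11 rose, none fell and 12 lay within 1.5-fold. Among all used genes 4.24% rose and 6.43% fell. The list was chosen with earlier results of these data known. The value was higher in MD43 for 22 of the 23, against 51.2% of all used genes. The single gene with a lower value was Tjp3 (-0.09 ± 0.09), named here after its value was seen. The median log2 fold change was 0.57, and the summed level was 133 RPKM in WT and 200.5 RPKM in MD43, a ratio of 1.503. Spint1, an inhibitor of membrane serine proteases, went from 2.37 to 4.58 RPKM (0.95 ± 0.12), and St14, encoding the protease matriptase that it restrains, rose 1.86-fold (0.89 ± 0.08). The tight junction claudin genes Cldn7 (0.87 ± 0.09) and Cldn6 (0.87 ± 0.05) rose too, Cldn6 from 24.3 to 44.3 RPKM. Grb7, an adaptor of receptor kinases, rose by 0.78 ± 0.09, and Tgm1, a transglutaminase of the cornified envelope with 11.5 and 27.1 reads, by 0.76 ± 0.36. Epcam, the epithelial adhesion molecule whose upstream sequence is printed above, went from 17.9 to 27.4 RPKM (0.61 ± 0.05). Lsr, of tricellular junctions, was at 0.27 ± 0.05.

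**Figure D2:**
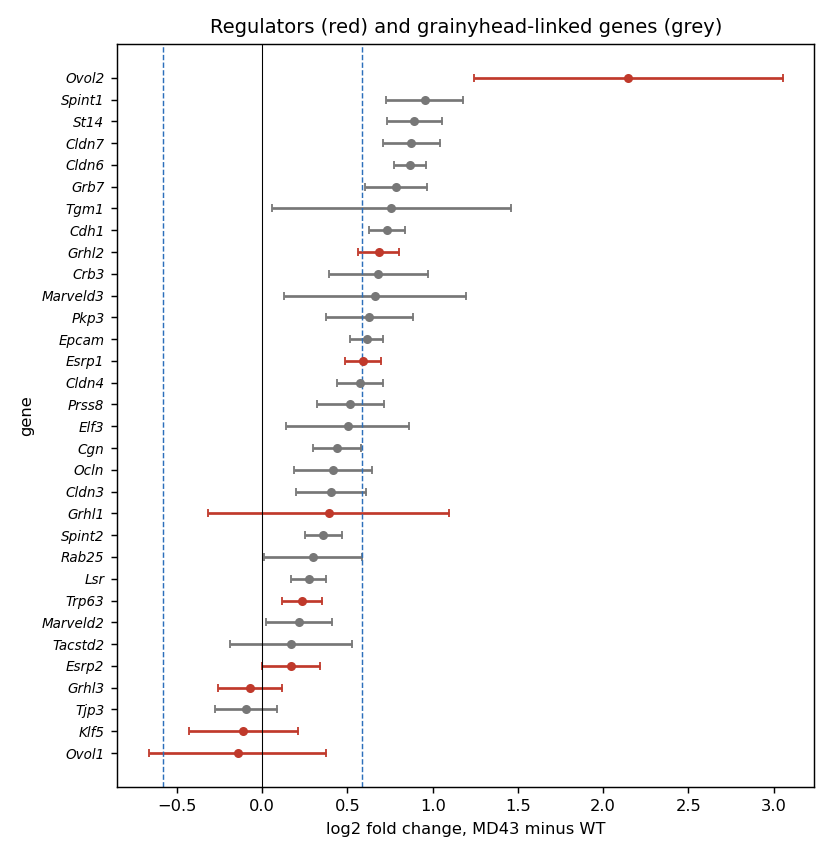
Log2 fold change (MD43 minus WT) of the 9 regulators (red) and the 23 used grainyhead-linked epithelial genes (grey), in order of size, with 95% intervals from counting error alone and dashed lines at 1.5-fold. Ovol2 stands at the top at 2.15, Grhl2 and Esrp1 lie among the junction genes, and Grhl3, Klf5 and Ovol1 are at the bottom with Tjp3.

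The regulators were set beside 2 epithelial transcripts of the same grainyhead-linked list, both of which rose, Epcam and Cdh1, which encodes the adherens junction protein E-cadherin (6.82 RPKM in WT, 11.3 RPKM in MD43, log2 fold change 0.73 ± 0.05, chosen after its value was seen). Grhl2 differed from Cdh1 by -0.05 ± 0.08 and from Epcam by 0.07 ± 0.08 on the log2 scale, and Esrp1 by -0.14 ± 0.08 and -0.02 ± 0.07. Both lay within the counting interval of either gene, as did Grhl1 with its wide error. Ovol2 exceeded Cdh1 by 1.42 ± 0.47 and Epcam by 1.53 ± 0.47. Trp63, Grhl3, Ovol1, Esrp2 and Klf5 were below both beyond counting error. Relative to Cdh1 they were at -0.50 ± 0.08 for Trp63, -0.80 ± 0.11 for Grhl3, -0.88 ± 0.27 for Ovol1, -0.56 ± 0.10 for Esrp2 and -0.84 ± 0.17 for Klf5. These positions depend on the reference, since other epithelial genes had smaller values, such as Lsr at 0.27 ± 0.05 and Cdh3, encoding P-cadherin, at 0.32 ± 0.05, near the 0.23 of Trp63.

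Of the Ovo-like repressors, Ovol2 showed the largest difference of the 9 and Ovol1 none past the limit. Ovol2 (ENSMUSG00000037279.13, chr2:144305175-144332146, minus strand), needed in the mouse embryo for neural tube closure, was at 0.167 RPKM in WT (5.66 reads) and 0.739 RPKM in MD43 (34.9 reads). It was 4.43-fold higher (interval 2.36 to 8.30; log2 fold change 2.15 ± 0.46), and it was the 1 regulator past 2-fold, where 1.64% of used genes rose that far. It rested on few reads, and since it passed the limit of 10 reads only in MD43, its place among used genes is no sign of a difference. Among genes under 100 reads in both genotypes, 13.3% rose and 5.74% rose past 2-fold, and of the 4 regulators of that depth (Grhl1, Ovol1, Ovol2 and Klf5) 1 did. Ovol1 (ENSMUSG00000024922.2, chr19:5549136-5560646, minus strand), known for restraining epidermal progenitors, was at 0.472 RPKM (26.5 reads) in WT and 0.427 RPKM (33.3 reads) in MD43, a log2 fold change of -0.15 ± 0.27 (0.630 to 1.30-fold).

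**Figure D3:**
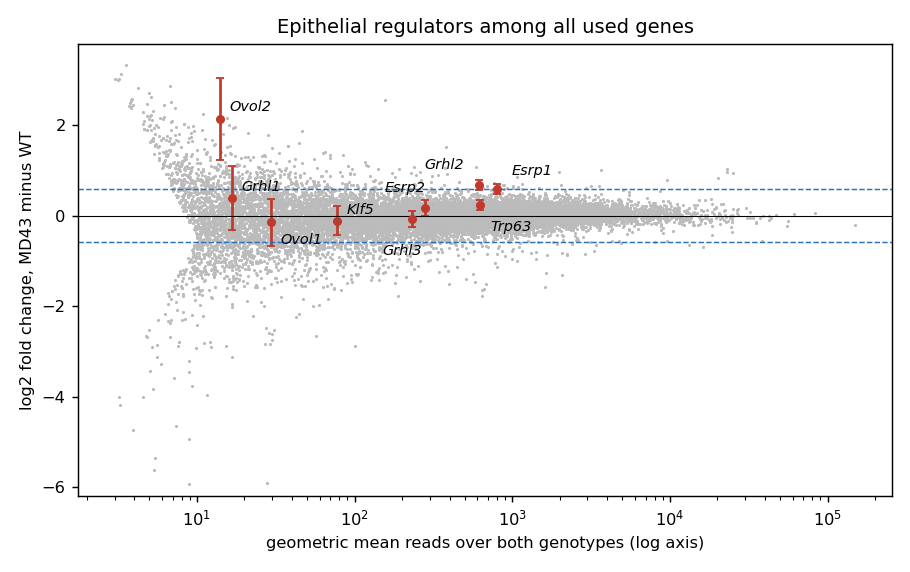
Log2 fold change (MD43 minus WT) against reads (geometric mean of both genotypes, log axis) for all 15377 used genes (grey) and the 9 regulators (red, with 95% intervals from counting error alone), with dashed lines at 1.5-fold. Ovol2 and Grhl1 lie on the left where the grey cloud is wide, and Grhl2 and Esrp1 lie at its upper edge on the right where it is narrow.

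Esrp1 rose and its paralogue Esrp2 did not pass the limit. Esrp1 (ENSMUSG00000040728.15, chr4:11331933-11386783, minus strand) was at 5.44 RPKM in WT (551 reads) and 8.20 RPKM in MD43 (1155 reads), 1.51-fold (interval 1.402 to 1.619; log2 fold change 0.59 ± 0.05). Esrp2 (ENSMUSG00000084128.10, chr8:106130319-106136974, minus strand) was at 3.19 RPKM (222 reads) and 3.58 RPKM (347 reads), with a log2 fold change of 0.17 ± 0.09 and an interval of 0.998 to 1.27-fold. At this better depth few genes rose. Among those with at least 200 reads in both genotypes, 0.421% did, and of the 4 regulators of that depth (Trp63, Grhl2, Esrp1 and Esrp2) 2 did. Grhl3, with 199 reads in WT and 264 in MD43, lay just under that limit and so in neither depth group. It did not rise (log2 fold change -0.07 ± 0.10). The proteins act on splicing and not on the summed level of a gene. The 20 genes known to be spliced by them, all used, held no gene past 1.5-fold, with a median log2 fold change of 0.03. Over all used genes, 4.24% rose and 6.43% fell. The largest values were -0.38 ± 0.06 for Tcf7l2 and 0.30 ± 0.15 for Cd44. Exon use was not analysed here.

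Klf5 (ENSMUSG00000005148.8, chr14:99298691-99315036, plus strand) was at 0.821 RPKM in WT (68.6 reads) and 0.761 RPKM in MD43 (88.4 reads). With a log2 fold change of -0.11 ± 0.16 and an interval of 0.741 to 1.16-fold, a difference was not detectable at this depth.

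Whether the 2 libraries of a genotype lay on 1 side of the other pair was read from the products. The value of a genotype returns the product of the reads of its 2 libraries, which must be a whole number and can be divided into 2 read counts in only a few ways. Recovery of whole numbers was checked for products under 100000. The larger products of Esrp1, Grhl2, Trp63 and Esrp2 were rounded to the nearest whole number, and their divisions are less certain, since the rounding of the deposited values alone allows an error of up to 0.221 (Esrp1 in MD43, 0.101 from a whole number). Among genes with a single possible division, the 2 libraries differed within 4-fold for 98.7% (MD43, 305 genes) and 99.3% (WT, 421 genes), so divisions within 4-fold were taken. These genes all had larger products than Ovol2, Ovol1, Grhl1 and Klf5, so the window was not checked at such low depth. The estimated depth ratio of the 2 libraries was 1.56 in MD43 and 1.45 in WT. Which count belonged to which embryo, and so which sex or mother, cannot be read from a product.

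For Ovol2 the product was 32 in WT and 1215 in MD43, and each had 1 division, 4 and 8 reads in WT and 27 and 45 reads in MD43. Scaled by the library depths in either order, a WT library lay between 0.0978 and 0.284 RPKM and an MD43 library between 0.458 and 1.19 RPKM. Within the 4-fold window the genotypes thus did not overlap, but that window was not checked at so few reads. The libraries were apart in this way and higher in MD43 for 45 of 9814 genes that could be divided (0.459%), and lower for 72 (0.734%). When the window was widened to 8-fold, a choice made after seeing the data, the divisions 2 and 16 reads in WT and 15 and 81 reads in MD43 were added. A WT library could then reach 0.569 RPKM and an MD43 library could be as low as 0.255 RPKM, so the ranges overlapped.

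The products of Grhl2 and Esrp1 left the matter undecided. Esrp1 had 1 division in WT, 393 and 773 reads, and 3 in MD43, of which the widest was 721 and 1850 and the closest 1030 and 1295. The levels that these allow were 3.22 to 9.21 RPKM in WT and 4.10 to 16.4 RPKM in MD43. Grhl2 had 2 divisions in WT (270 and 622, or 311 and 540 reads) and 5 in MD43, from 494 and 1695 to 741 and 1130 reads. Its allowed levels were 1.62 to 5.42 RPKM in WT and 2.06 to 11.0 RPKM in MD43. For both genes the groups overlapped under some divisions and not under others, and the same was the case for Trp63, Grhl1, Esrp2 and Klf5. The libraries of Grhl3 and of Ovol1 overlapped under every division, with 149 and 267 reads for Grhl3 in WT and 27 and 41 reads for Ovol1 in MD43.

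**Figure D4:**
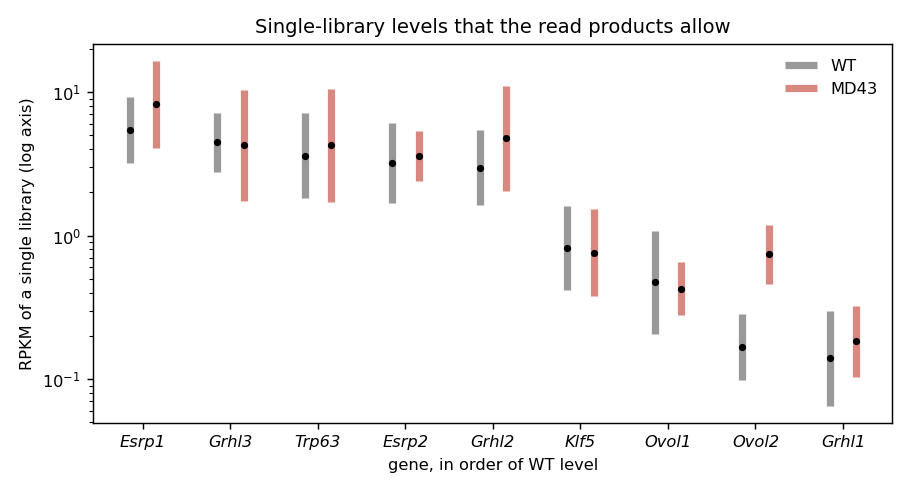
RPKM that a single library can have (log axis) given the whole-number read product of each genotype, for WT (grey bars) and MD43 (red bars), over divisions within 4-fold and both orders of depth. Black points are the merged values. The bars of Ovol2 are apart (up to 0.284 RPKM in WT, from 0.458 RPKM in MD43) and those of the other 8 regulators overlap.

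Further genes of the same families included none that rose, which for so few genes is near the 4.24% of all used genes that rose. Of 19 relatives 18 were used, 4 fell, beside 6.43% of all used genes, and the median log2 fold change was -0.16. Trp73, encoding the p63 relative p73, fell from 1.19 to 0.570 RPKM (-1.07 ± 0.16), opposite in sign to the 0.23 of Trp63. The widely expressed family founder Trp53 was at 0.12 ± 0.03. The Krüppel-like genes Klf4 (-0.76 ± 0.23), Klf6 (-0.62 ± 0.06) and Klf9 (-0.59 ± 0.16) fell. Tfcp2, Tfcp2l1 and Ubp1, the other branch of the grainyhead family, were at -0.13 ± 0.06, 0.07 ± 0.25 and 0.04 ± 0.03. Rbm47, an RNA-binding protein gene, was at 0.08 ± 0.23, and Ovol3 was under the limit of use.

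Simple-epithelium and periderm genes gave a mixed picture. Of 13 on the list 9 were used, 2 rose and 1 fell, where 4.24% of all used genes rose and 6.43% fell. The median log2 fold change was 0.32. Krt8, a keratin of simple epithelium and periderm, rose from 24.3 to 39.4 RPKM (0.70 ± 0.04), and its partner Krt18 was at 34.5 and 48.4 RPKM (0.49 ± 0.04). Krt17 had 1.34 reads in WT and 10.1 in MD43, which is at least 2.42-fold higher when WT is set to 3 reads, and it was used only through its reads in MD43. Gabrp, a receptor subunit gene of periderm, fell by 1.03 ± 0.18. Krt4, Krt6a, Krt13 and Krt23 were not used.

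Of 16 mesenchymal opponents of the epithelial state, all used, 1 fell and none rose, a share near the 6.43% of all used genes that fell. The other 15 lay within 1.5-fold. A lower value in MD43 was found for 14, with a median log2 fold change of -0.19. Twist2, a mesenchymal helix-loop-helix factor, fell from 1.73 to 1.06 RPKM (-0.71 ± 0.16). Zeb1 and Zeb2, the repressors that bind the E-box and that Ovol factors are known to repress, had log2 fold changes of -0.36 ± 0.04 and -0.47 ± 0.05. The filament gene Vim was at -0.42 ± 0.01. The 2 genes with a higher value were Ptbp1, a splicing repressor in many cells (0.12 ± 0.01), and Fn1, encoding the matrix protein fibronectin (0.19 ± 0.02), the latter named after its value was seen.

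Of 36 other orofacial cleft genes 35 were in the table and 33 were used, 1 rose and 2 fell, and the median log2 fold change was 0.02. Both counts are near the shares of all used genes, 4.24% that rose and 6.43% that fell. Wnt3, a Wnt ligand of the facial ectoderm, fell 2.79-fold from 2.57 to 0.920 RPKM (127 and 63.2 reads; -1.48 ± 0.16). Esrrg, a nuclear receptor gene, fell from 21.98 to 11.7 reads (-1.39 ± 0.37), and Meox2 was 2.07-fold higher, at 3.55 and 10.2 reads, with a counting error of 0.63 on the log2 scale. Meox2, the 1 gene of the list that rose, was used only through its reads in MD43. Foxe1, whose human counterpart is a cleft gene too, was listed with the pharyngeal endoderm markers and is not in these counts. It rose by 1.87 ± 0.25 on the log2 scale. Arhgap29 (-0.57 ± 0.03) and the Wnt enhancer gene Rspo2 (-0.57 ± 0.05) lay just within 1.5-fold.

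**Figure D5:**
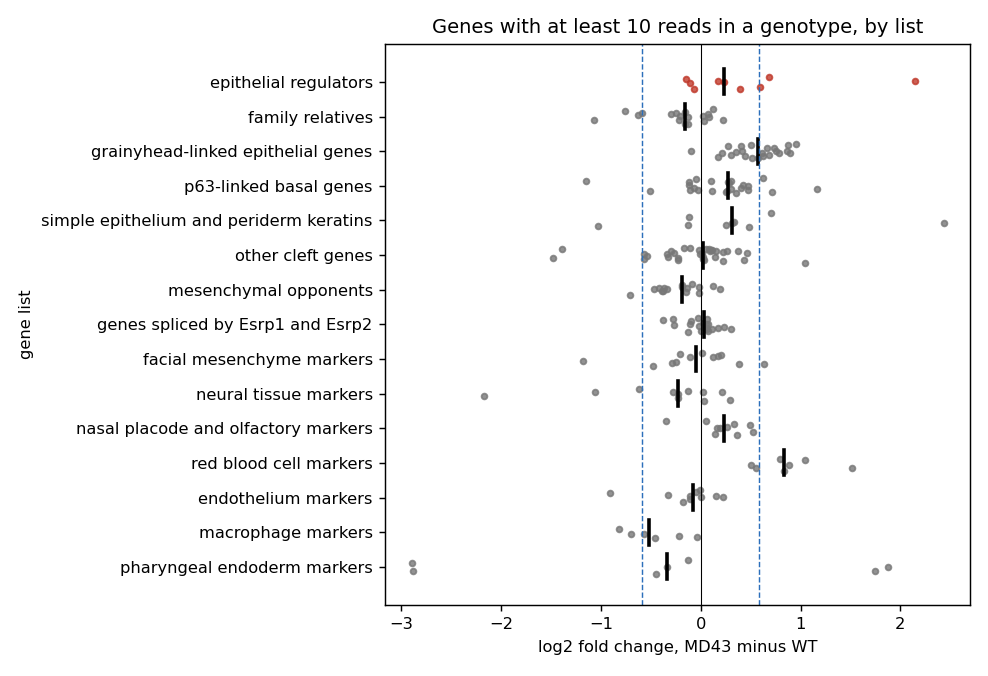
Log2 fold change (MD43 minus WT) of every used gene of the 9 epithelial regulators (red points) and of 14 gene lists (grey points), with a black bar at each median and dashed lines at 1.5-fold. The median is 0.57 for the grainyhead-linked genes and 0.23 for the regulators, -0.19 for the mesenchymal opponents and 0.84 for the red blood cell markers.

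Markers of other tissues were counted in the same way, beside the 4.24% of all used genes that rose and the 6.43% that fell. All 7 used red blood cell markers had higher values in MD43 and 5 rose, with a median log2 fold change of 0.84 and summed levels of 3060 RPKM in WT and 5819 RPKM in MD43. Of the nasal placode and olfactory markers 10 of 13 were used, 9 had the higher value and none passed 1.5-fold (median 0.23), with Dlx5 at 0.52 ± 0.10 and Dlx3 at 0.49 ± 0.09. The placode marker with a lower value was Pax6 (-0.35 ± 0.03). Facial mesenchyme markers were balanced, 6 higher and 6 lower (median -0.05), although Lum fell (-1.18 ± 0.10). Of 11 used neural tissue markers 3 fell (median -0.23), of 10 endothelium markers 1 fell (median -0.08), and of 6 used macrophage markers 2 fell (median -0.52). The endothelium count is near the share of all used genes. The macrophage values rest on few reads, and with at least 50 reads in a genotype none fell (median -0.25). Ptprc, 1 of the 2 macrophage markers that fell, was used only through its reads in WT, so it could enter only with a lower value. The part of these tissues, and of the share of surface ectoderm in each dissection, in the values of the regulators was not tested.

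Some of the regulators share exon bases with genes on the opposite strand, and whether the counting used strand is not stated in the sources used here. Grhl2 shares 169 bases with the antisense gene Gm16136 (94.9 reads in WT, 157 in MD43, log2 fold change 0.25 ± 0.13). Esrp2 shares 219 bases with Nfatc3, which had 2106 and 2905 reads and a log2 fold change of -0.01 ± 0.03. Ovol2 shares 359 bases with 1700108N11Rik, listed without reads, and Esrp1 shares 127 bases with Gm26663, with 3.46 and 6 reads. Ovol1 shares 690 bases with the pseudogene Gm31166. Grhl1, Grhl3, Klf5 and Trp63 share none.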

How the data were processed

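Transcripts of the FNP were measured by RNA-seq in 4 embryos at E10.5, 2 WT and 2 MD43, from stranded poly(A) libraries of 100 ng total RNA. The authors trimmed reads with Trim Galore (0.4.4), mapped them with HISAT2 (2.0.5) to GRCm38.p6 and quantified them in SeqMonk, with versions from the submitters' processing notes. The deposited table holds the authors' log2 RPKM per genotype for genes of 19 autosomes, with the 2 libraries merged. Its other columns, a log2 fold change, an average and an FDR from the authors' edgeR-based test listed for genes under 0.05, were not used. The 9 regulators and the 14 gene lists (229 genes) were chosen with earlier results of these data known.

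The table was joined to GENCODE M21 for exon lengths (33101 rows matched). Each value, scaled back by exon length and set against the genes without reads (counted as 0.9 reads), gave the product of the reads of the 2 libraries. Of products under 100000, 99.8% in MD43 and 99.8% in WT were whole to within 0.1 or at the value of a library without reads. The mean of the inverse reads cannot be below the inverse of their geometric mean, so the counting error is a lower limit. Intervals cover counting error only. The filter was 10 reads or more in either genotype, and the call was 1.5-fold. Alternatives were a 2-fold limit, pseudocounts of 0.1 and 1 RPKM, centring, a GC and length correction (1.39% of the variance), no filter or at least 50 reads, and, chosen after seeing the data, values of at most 3 reads set to 3 and an 8-fold window for divisions of Ovol2. Named were all regulators and relatives, and in each list up to 6 genes by size of difference and 3 by level, of which some are not reported here. Calculations used Python 3.11.15, numpy 2.4.6 and pandas 2.3.3, and the recovery was tested on simulated data. Motifs were searched in RefSeq promoter windows of GRCm38.p6.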

Additional observations from a re-analysis of the deposited data

How the results depend on the processing

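No paired analysis was possible because only merged genotype values were given, and leaving out each replicate could not be run for the same reason. Of 36 values of single regulators under the alternatives, 34 moved by less than their 95% counting interval and none changed sign. Esrp1, at 1.51-fold the nearest to the limit, had a log2 fold change of 0.58 with a pseudocount of 0.1 RPKM, which left 2 regulators past 1.5-fold. The larger moves came with a pseudocount of 1 RPKM, which by construction shrinks differences of low genes, and gave log2 fold changes of 0.54 for Grhl2 and 0.58 for Ovol2. Under it, 0 regulators were past 1.5-fold, the grainyhead-linked median was 0.36 with 7 genes that rose, and of the p63-linked genes 0 rose and 0 fell. With a 2-fold limit 1 regulator, Ovol2, had risen. With at least 50 reads, which leaves Lamb3 out, 0 p63-linked genes fell. Of 266 values of lists, 237 stayed close to those given and 29 moved. The correction for GC content and length left 2 of the 4 relatives that fell. For the macrophage markers the median was -0.31 with 1 that fell at a pseudocount of 0.1 RPKM. The median of the simple-epithelium and periderm genes became -0.12 without a filter on reads, when genes listed without reads enter. Depth limited Ovol2, Grhl1 and Ovol1, with at most 34.9 reads in a genotype, and 1 merged value per genotype left the variation between embryos unmeasured for all 9 regulators.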

Other observations

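The pharyngeal endoderm markers, of which 7 of 10 were used, split in both directions, with 2 that rose, 2 that fell and a median log2 fold change of -0.34. Over all used genes 4.24% rose and 6.43% fell. Foxe1, a forkhead gene of the thyroid bud and oral ectoderm whose human counterpart is a cleft gene, was at 0.455 RPKM in WT (20.5 reads) and 1.67 RPKM in MD43 (104 reads), a log2 fold change of 1.87 ± 0.25. Foxa2 rose from 4.24 to 19.8 reads (1.74 ± 0.55). The related gene Foxa1 fell from 28.3 to 5.29 reads (-2.89 ± 0.48), and Pax8, a thyroid factor, fell from 17.4 to 3.29 reads (-2.88 ± 0.61). The last 3 rest on few reads, and each passed the limit of 10 reads only in the genotype where it is higher.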
